A study of Mus musculus with 6 samples.

Results

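Cholesterol genes of the hippocampus are described here in mice given a TAF15 virus or a control virus. The members were 38 genes for the synthesis, sensing, transport and export of cholesterol, chosen by name from the 52550 genes of the count table, and all 38 were found there and passed the filter on low counts. RNA was measured in 6 male C57BL/6J mice, 1 mouse per library, all given an adeno-associated virus (AAV) by stereotaxic injection into the CA1 field of both hippocampi at 8 weeks of age, with 31 days in the label of every sample. In 3 mice the virus carried TAF15, and its label names the CaMKIIα promoter, which is active in excitatory neurons (TAF15 OE). The other 3 mice received a control virus, whose promoter and insert the sources used here do not name (Control). The counts do not tell which cells took up either virus. TAF15 is an RNA-binding protein of the FET family. The whole hippocampus was sequenced, so the libraries hold RNA of injected neurons together with that of all other cells. In such bulk RNA, fewer cells of a type and less RNA per cell cannot be told apart.

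The libraries held 14965464 to 16067000 counts. Taf15 stood at 53.0 to 63.5 CPM (counts scaled to a common library size) across Control and 241 to 272 across TAF15 OE, and vector transcript could not be told apart from the mouse's own. Control 1 and TAF15 OE 1 stood apart from the other libraries on the second principal component, and held less choroid plexus RNA. Of 16758 genes tested, 15.3% differed between the groups in edgeR's quasi-likelihood test at a Benjamini-Hochberg adjusted p below 0.05, 9.32% higher and 5.95% lower in TAF15 OE. The term "called" is used below for a gene past that threshold.

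The brain makes its own cholesterol, because plasma lipoproteins do not cross the blood-brain barrier. Synthesis runs from acetyl-CoA through mevalonate and squalene to lanosterol and then to cholesterol, and its genes are switched on together by the transcription factor SREBP-2, the product of Srebf2, when membranes are short of sterol. Oxysterols, made when cholesterol is plentiful, act through the nuclear receptors LXRα and LXRβ (Nr1h3 and Nr1h2), whose known targets include the exporter genes Abca1 and Abcg1, the lipid carrier gene Apoe, Srebf1 and Mylip. Glia load cholesterol onto apolipoprotein E particles that neurons take up, and neurons clear their excess by hydroxylation through Cyp46a1.

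Promoters of the members were read from RefSeq windows of build GRCm38.p6, running from 250 bases before to 50 bases after a gene's start, with 31 of 38 members matched. The first 2 sequences are shown because they were the only members' windows, of those matched, with a DR4-like motif (GGTNA, any 5 bases, GGTNA, on either strand), the form of repeat that LXR binds. It was present in 0.718% of all 32851 windows. Counted by gene, 2 of the 31 matched members had it, against 0.818% of all 27025 genes with a window. The window of Srebf1 is the third of 3 in the table. The last 2 are shown for the synthesis enzymes, which hold CCAAT boxes (CCAAT on either strand). Each is the stretch of 250 bases before the start, 5′ to 3′ on the gene's strand, with capitals marking the DR4-like motif, CCAAT boxes and, in Hmgcs1, an SRE-like motif (TCACNCCAC on either strand), the type of site SREBP binds.
Abca1 (chr4:53159896-53160145, minus strand): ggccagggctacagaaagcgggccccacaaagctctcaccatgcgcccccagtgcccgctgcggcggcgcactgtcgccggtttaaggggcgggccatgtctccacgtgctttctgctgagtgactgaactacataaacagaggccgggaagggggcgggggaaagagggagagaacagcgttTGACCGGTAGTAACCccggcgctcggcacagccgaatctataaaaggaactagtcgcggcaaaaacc
Srebf1 (chr11:60210472-60210721, minus strand): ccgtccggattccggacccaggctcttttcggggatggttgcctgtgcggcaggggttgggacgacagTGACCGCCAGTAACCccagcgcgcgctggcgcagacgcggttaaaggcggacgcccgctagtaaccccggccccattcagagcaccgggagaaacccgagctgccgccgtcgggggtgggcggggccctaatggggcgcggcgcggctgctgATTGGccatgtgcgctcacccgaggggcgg
Hmgcs1 (chr13:119690101-119690350, plus strand): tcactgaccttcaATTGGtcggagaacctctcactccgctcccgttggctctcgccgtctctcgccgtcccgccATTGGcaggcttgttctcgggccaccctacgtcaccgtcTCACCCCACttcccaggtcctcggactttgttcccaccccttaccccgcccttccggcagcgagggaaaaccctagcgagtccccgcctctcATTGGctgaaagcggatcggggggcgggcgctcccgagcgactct
Msmo1 (chr8:64733579-64733828, minus strand): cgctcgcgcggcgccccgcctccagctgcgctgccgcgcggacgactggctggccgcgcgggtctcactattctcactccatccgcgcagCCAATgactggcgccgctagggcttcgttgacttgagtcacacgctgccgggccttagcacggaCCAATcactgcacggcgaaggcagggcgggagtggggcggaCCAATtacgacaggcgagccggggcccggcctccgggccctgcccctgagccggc

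The DR4-like motif began 67 bases before the start of Abca1 and 182 bases before that of Srebf1, on the opposite strand in both. A CCAAT box was present for 14 of the 15 synthesis enzymes with a window, against 41.1% of all 27025 genes with one. The exception was Acat2. The SRE-like motif was present in 1 of those 15, Hmgcs1, where it began 137 bases before the start, and in 1.44% of all genes with a window. The motifs did not overlap in the sequences shown. A match in these windows is a description of letters and was not tested for binding.

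In TAF15 OE, 7 of 18 enzymes that make cholesterol fell, while 7 of 12 genes that carry, store, hydroxylate or export it rose. Srebf1 rose too, and Srebf2 and Insig1 fell. Of the 38 genes 9 were called lower, against 5.95% of all tested genes, and 8 were called higher, against 9.32%. All 3 TAF15 OE libraries lay below all 3 Control libraries in 17 members, as in 15.5% of tested genes, and above them in 9, as in 19.1% (34.6% in either direction). DESeq2 called 9 members lower, against 7.88% of the genes it tested, and 7 higher, against 8.81%. Without Control 2, edgeR called 2 members lower, against 642 of all 17205 genes tested. Without Control 3 it called 3 lower, against 568 of 17209. The median log2 fold change was -0.31 over the 18 synthesis enzymes and 0.23 over the 7 lipoprotein and efflux genes, beside 0.026 over all tested genes. Libraries were also scaled on 30 presynaptic release genes, of which 23 were themselves called lower in TAF15 OE (median log2 fold change -0.30). Under it the median over all genes became 0.34. It called 15 members higher and 0 lower, against 7399 and 118 of all 16758 tested genes. The synthesis median then turned to 0.00491, a difference of -0.34 from all tested genes, against -0.33 before.

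**Figure D1:**
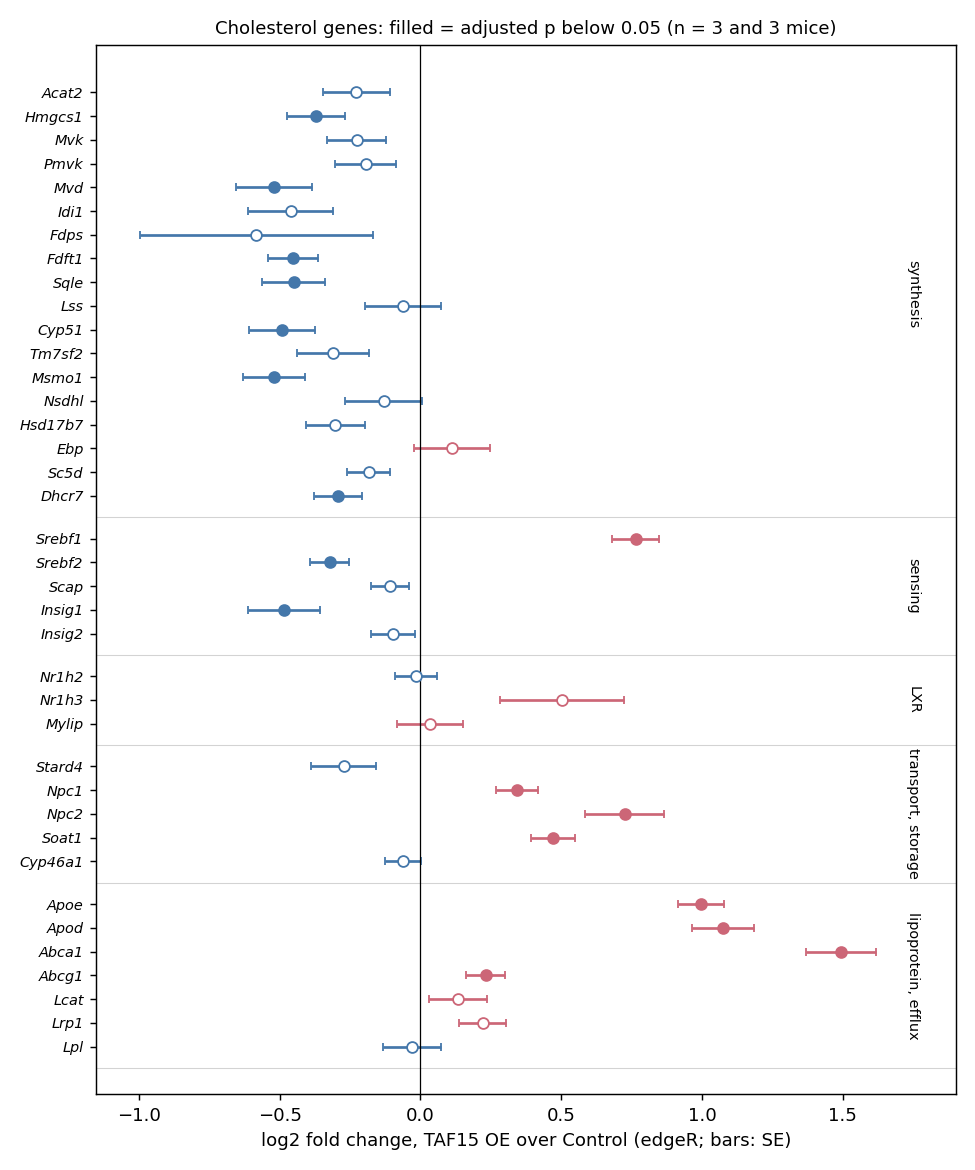
Log2 fold change of each of the 38 cholesterol genes, TAF15 OE over Control (x axis, edgeR; bars are the SE), by role from top to bottom, red above 0 and blue below 0; filled points have an adjusted p below 0.05. The 7 filled synthesis enzymes lie between -0.52 and -0.29, Srebf1 lies at 0.76 and Abca1 at 1.49; under scaling on presynaptic release genes the median of the 18 synthesis enzymes is 0.00491.

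The early, mevalonate part of the pathway was represented by Acat2, Hmgcs1, Mvk, Pmvk, Mvd, Idi1 and Fdps. Hmgcs1, which makes the HMG-CoA from which mevalonate is formed (chromosome 13, 119690379 to 119708260, plus strand, GRCm38), stood at 124, 148 and 145 CPM across Control 1 to 3, against 91.6, 117 and 114 across TAF15 OE 1 to 3. The groups did not overlap, TAF15 OE 1 was the lowest library, and the gene fell 1.29-fold (log2 change -0.37, SE 0.103, edgeR adjusted p = 0.0351). Mvd, the decarboxylase that yields isopentenyl diphosphate, stood at 19.4, 19.7 and 18.7 CPM across Control 1 to 3, against 10.9, 15.4 and 14.0 across TAF15 OE 1 to 3. It fell 1.43-fold without overlap (log2 change -0.52, SE 0.136, edgeR adjusted p = 0.0256). Mvk and Pmvk, the kinases before it, were not called (log2 fold changes -0.23 and -0.19, adjusted p of 0.181 and 0.260), although neither showed overlap between the groups. Acat2, a thiolase of the first step, and Idi1, the isomerase, were not called either (-0.23 and -0.46, adjusted p of 0.232 and 0.0628). Fdps, farnesyl diphosphate synthase, had only 7 to 15 counts in a library. The gene model Gm43738 covers 26.7% of its exonic bases on the same strand, so its level here is uncertain and no change could be detected at this depth (log2 change -0.58, SE 0.414, edgeR adjusted p = 0.392).

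Of the 3 genes from farnesyl diphosphate to lanosterol, Fdft1 and Sqle fell. Fdft1, squalene synthase (chromosome 14, 63145150 to 63179578, minus strand), stood at 66.7, 75.8 and 78.5 CPM across Control 1 to 3, against 49.3, 53.8 and 58.3 across TAF15 OE 1 to 3 and fell 1.37-fold (log2 change -0.45, SE 0.0886, edgeR adjusted p = 0.00728). It shares 18.3% of its exonic bases with the cathepsin gene Ctsb on the other strand, which rose (log2 fold change 0.53, adjusted p = 0.00195). Strand was not given for the counting, so reads there cannot be told apart. Of the other members, smaller exonic overlaps with expressed genes were found for Tm7sf2 (12.1%, with Vps51), Npc1 (4.52%, with Rmc1), Cyp51 (3.76%, with Akap9) and Srebf1 (1.93%, with Rai1). Sqle, squalene epoxidase and a rate-limiting step, stood at 54.9, 60.5 and 68.3 CPM across Control 1 to 3, against 38.5, 45.5 and 50.4 across TAF15 OE 1 to 3 and fell 1.37-fold (log2 change -0.45, SE 0.111, edgeR adjusted p = 0.0218). Lss, which closes squalene epoxide into lanosterol, was not called, with a Control mean of 32.5 ± 4.48 CPM and a TAF15 OE mean of 31.1 ± 4.86 (SD over 3 mice), groups that overlapped and a log2 fold change of -0.061 (SE 0.135).

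In the steps from lanosterol to cholesterol, Cyp51, Msmo1 and Dhcr7 fell. Cyp51, the lanosterol demethylase, stood at 54.7, 62.1 and 64.0 CPM across Control 1 to 3, against 35.0, 47.5 and 46.2 across TAF15 OE 1 to 3, and fell 1.40-fold (log2 change -0.49, SE 0.117, edgeR adjusted p = 0.0194). Msmo1, the sterol oxidase that acts after it (chromosome 8, 64718139 to 64733792, minus strand), stood at 57.3, 63.9 and 66.1 CPM across Control 1 to 3, against 36.1, 45.6 and 48.9 across TAF15 OE 1 to 3. It fell 1.43-fold, from 62.4 ± 4.57 CPM (SD, n = 3) to 43.5 ± 6.65 CPM (SD, n = 3) (log2 change -0.52, SE 0.111, edgeR adjusted p = 0.0116), again with TAF15 OE 1 lowest. Of the partners of Msmo1 in removing methyl groups, Nsdhl (-0.13, adjusted p = 0.577) and Hsd17b7 (-0.30, adjusted p = 0.0748) were not called, and only the groups of Hsd17b7 were separate. Among the closing steps Dhcr7, the last reductase, stood at 34.0, 37.1 and 36.6 CPM across Control 1 to 3, against 29.1, 30.2 and 28.7 across TAF15 OE 1 to 3 and fell 1.22-fold (log2 change -0.29, SE 0.0853, edgeR adjusted p = 0.0402). Tm7sf2 (-0.31), Sc5d (-0.18) and the isomerase gene Ebp (0.11) were not called (adjusted p of 0.129, 0.131 and 0.636), and Ebp was the 1 enzyme of 18 with a positive estimate.

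Over the 18 enzymes, 7 were called lower (5.95% of all tested genes were) and 0 higher (9.32%). Lower without overlap were 13 of 18, as were 15.5% of all tested genes. Averaged over the 18 after centring each gene, log2 CPM was 0.041, 0.19 and 0.24 across Control 1 to 3, against -0.27, -0.12 and -0.075 across TAF15 OE 1 to 3. Control 1 was the lowest of its group and TAF15 OE 1 the lowest of all. Of the 7 calls that of Fdft1 held with any 1 library left out (largest adjusted p 0.0357). Without Control 2 the calls of Cyp51, Dhcr7, Hmgcs1, Msmo1, Mvd and Sqle were lost, and without Control 3 those of Cyp51, Dhcr7, Hmgcs1, Mvd and Sqle, leaving 1 and 2 enzymes called. Dhcr7 was also lost without any other library, Mvd without Control 1 and Sqle without TAF15 OE 2, with adjusted p between 0.0523 and 0.128 in these losses. With 1 library left out the estimates of these 7 stayed negative, between -0.64 and -0.27, while under the presynaptic scaling none of the 7 was called lower and Dhcr7 turned to 0.021. On FPKM (counts scaled for gene length and library size) limma-trend called 0 of 17 enzymes lower with a pseudocount of 1 and 1 with a pseudocount of 0.1, Fdps being below its filter. With scaling on total counts the calls of Hmgcs1 and Dhcr7 were lost (adjusted p of 0.0910 and 0.0902).

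Genes of excitatory neurons moved the same way between the groups. Of 12 markers 9 were called lower, against 5.95% of all tested genes (median log2 fold change -0.46). Their summed level was 14112, 12032 and 12776 CPM across Control 1 to 3, against 10216, 9283 and 8667 across TAF15 OE 1 to 3. Within the groups the order differed. Control 1 and TAF15 OE 1 had the highest neuron sum of their group and the lowest mean of the synthesis enzymes. Oligodendrocyte markers, of the cells that make myelin from newly made cholesterol, went the other way. Of 12 markers 9 were called higher, against 9.32% of all tested genes (median 0.46). Their sums were 5292 to 5710 CPM in Control against 6504 to 8443 in TAF15 OE. The lowest p values were those of Rbfox3 (-0.50), Neurod6 (-0.64) and Nrgn (-0.58) in the first list and Mag (0.53), Cldn11 (0.49) and Cnp (0.48) in the second. No marker of these lists was at 0 in any library. The part of either in the levels of the synthesis enzymes was not tested.

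**Figure D2:**
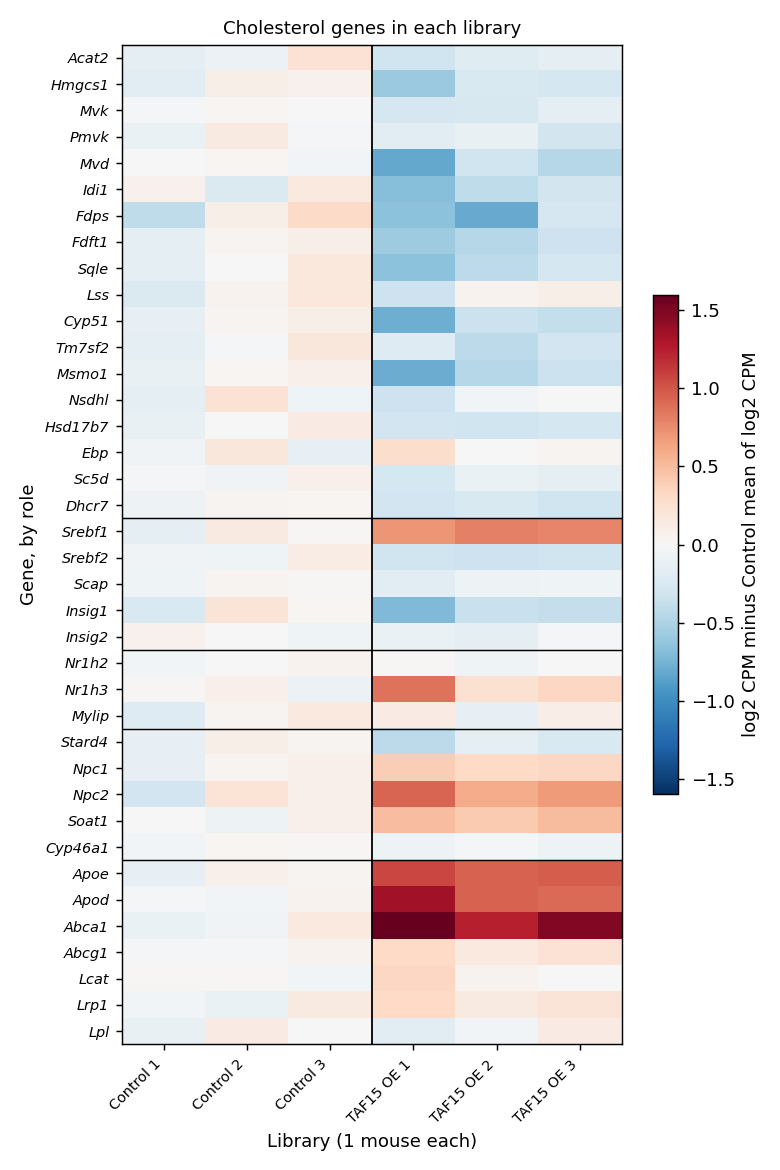
Level of each cholesterol gene (rows, by role, divided by black lines) in each library (columns, 3 Control and 3 TAF15 OE mice), as log2 CPM minus the Control mean of log2 CPM; red is higher and blue lower. Most synthesis enzymes are blue in TAF15 OE, most deeply in TAF15 OE 1, while Abca1, Apoe, Apod and Srebf1 are red in all 3.

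The sterol-sensing genes split, with Srebf1 higher and Srebf2 and Insig1 lower. Of the 5 genes 1 was called higher, against 9.32% of all tested genes, and 2 lower, against 5.95%. Srebf2, which encodes the driver of cholesterol synthesis (chromosome 15, 82147266 to 82205376, plus strand), stood at 251, 248 and 284 CPM across Control 1 to 3, against 209, 208 and 209 across TAF15 OE 1 to 3. The TAF15 OE libraries differed little among themselves and all lay under Control, and the gene fell 1.25-fold (log2 change -0.32, SE 0.0701, edgeR adjusted p = 0.0116). Its call was lost without TAF15 OE 2 (adjusted p = 0.0504). Srebf1, whose SREBP-1 proteins chiefly drive fatty acid synthesis (chromosome 11, 60199089 to 60222581, minus strand), stood at 69.1, 85.7 and 78.1 CPM across Control 1 to 3, against 127, 136 and 133 across TAF15 OE 1 to 3. It rose 1.70-fold, from 77.6 ± 8.28 CPM (SD, n = 3) to 132 ± 4.69 CPM (SD, n = 3) (log2 change 0.76, SE 0.0831, edgeR adjusted p = 3.94e-04), and stayed called with any 1 library left out. Counts per gene do not part the forms, SREBP-1a and SREBP-1c, which start from separate promoters.

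Insig1 encodes an anchor that keeps SREBP in the endoplasmic reticulum and is itself an SREBP target. It stood at 50.3, 68.7 and 60.7 CPM across Control 1 to 3, against 36.5, 46.5 and 45.5 across TAF15 OE 1 to 3. It fell 1.40-fold (log2 change -0.48, SE 0.128, edgeR adjusted p = 0.0321), a call that was lost without Control 2, Control 3 or TAF15 OE 3 (adjusted p of 0.103, 0.0930 and 0.0564). The call of Insig1 was also lost with total counts (edgeR adjusted p = 0.0718). With limma-trend it was lost on log2(FPKM + 1) and log2(FPKM + 0.1) (adjusted p of 0.125 and 0.119). On unfiltered log2(FPKM + 1) limma-trend called neither Insig1 nor Srebf2 (adjusted p of 0.224 and 0.1001). Under scaling on presynaptic release genes edgeR called neither (adjusted p of 0.392 and 0.933). Insig2, the related anchor, stood at 53.8, 51.9 and 48.9 CPM across Control 1 to 3, against 48.0, 46.2 and 50.5 across TAF15 OE 1 to 3, with overlap, and was not called (log2 change -0.096, SE 0.0781, edgeR adjusted p = 0.461). Scap, the escort that carries SREBP to the Golgi, stood at 101, 109 and 107 CPM across Control 1 to 3, against 93.9, 99.7 and 101 across TAF15 OE 1 to 3 and was not called (log2 change -0.11, SE 0.0672, edgeR adjusted p = 0.319), although its groups were separate by a narrow margin.

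Ratios of counts within a library do not depend on how libraries are scaled. Srebf1 over Srebf2 was 0.275, 0.345 and 0.275 across Control 1 to 3, against 0.605, 0.653 and 0.638 across TAF15 OE 1 to 3. The ratio was 2.13-fold higher in TAF15 OE, with no overlap. Abca1 over Hmgcs1 was 0.499, 0.429 and 0.510 across Control 1 to 3, against 2.38, 1.34 and 1.63 across TAF15 OE 1 to 3, 3.63-fold higher and again separate. Insig1 over Insig2 overlapped between the groups. These pairs were chosen after the values were seen. An exact permutation test of the group labels gave p = 0.1 for the first 2 pairs and 0.2 for Insig1 over Insig2. With 3 libraries in each group its smallest possible p is 0.1, so it cannot decide whether a ratio differed.

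Neither LXR gene was called. Nr1h2, encoding the widely expressed LXRβ, averaged 49.0 ± 1.78 CPM in the 3 Control libraries against 48.5 ± 1.44 in the 3 TAF15 OE libraries (SD), with a log2 fold change of -0.016 (SE 0.0752). Nr1h3, encoding LXRα of macrophages and microglia, was a low gene at 3.94, 4.11 and 3.66 CPM across Control 1 to 3, against 7.09, 4.60 and 4.92 across TAF15 OE 1 to 3. Its groups were separate, with TAF15 OE 1 highest, but it was not called (log2 change 0.50, SE 0.219, edgeR adjusted p = 0.150). Mylip, an LXR target whose ubiquitin ligase degrades lipoprotein receptors, was not called either (log2 change 0.036, SE 0.117, edgeR adjusted p = 0.877), and its groups overlapped.

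Of the genes for lipoproteins and efflux, 4 of 7 were called higher (9.32% of all tested genes were) and 0 lower (5.95%). Abca1, the pump that loads cholesterol and phospholipid onto apolipoproteins (chromosome 4, 53030787 to 53159895, minus strand), had the largest change of the 38, at 61.7, 63.3 and 74.0 CPM across Control 1 to 3, against 218, 157 and 185 across TAF15 OE 1 to 3. It rose 2.82-fold, from 66.3 ± 6.67 CPM (SD, n = 3) to 187 ± 30.6 CPM (SD, n = 3) (log2 change 1.49, SE 0.123, edgeR adjusted p = 2.57e-04). The groups lay far apart, and TAF15 OE 1 was the highest. Abcg1, which exports cholesterol to formed lipoproteins and is also an LXR target, stood at 74.6, 74.9 and 78.8 CPM across Control 1 to 3, against 94.5, 84.7 and 88.9 across TAF15 OE 1 to 3. It was called at 1.17-fold (log2 change 0.23, SE 0.0701, edgeR adjusted p = 0.0456), but the call was lost without any 1 of the 6 libraries (log2 fold changes 0.17 to 0.26, adjusted p up to 0.178) and with DESeq2 (adjusted p = 0.129). Abca1 over Abcg1 was 0.827, 0.846 and 0.938 across Control 1 to 3, against 2.31, 1.85 and 2.08 across TAF15 OE 1 to 3. This ratio within a library was 2.38-fold higher in TAF15 OE, without overlap. The pair was also chosen after the values were seen. Its exact permutation test gave p = 0.1, the smallest that test can give here.

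Apoe, the main apolipoprotein of the brain (chromosome 7, 19696109 to 19699188, minus strand), stood at 1972, 2294 and 2228 CPM across Control 1 to 3, against 4548, 4169 and 4230 across TAF15 OE 1 to 3. It rose 1.99-fold (log2 change 1.00, SE 0.0824, edgeR adjusted p = 6.39e-05), and per length it was the most abundant of the 38, at 996 ± 95.7 FPKM in Control and 2047 ± 75.8 in TAF15 OE. Apod, a lipocalin of oligodendrocytes and perivascular fibroblasts that binds small lipids, stood at 147, 144 and 155 CPM across Control 1 to 3, against 376, 285 and 279 across TAF15 OE 1 to 3. TAF15 OE 1 was the highest, and the gene rose from 149 ± 5.69 CPM (SD, n = 3) to 313 ± 54.5 CPM (SD, n = 3) (log2 change 1.07, SE 0.110, edgeR adjusted p = 6.03e-04). The rises of Abca1, Apoe and Apod were called with any 1 library left out and also without Control 1 and TAF15 OE 1 together (log2 fold changes 1.29, 0.87 and 0.89). The remaining members of this role were not called. These were Lcat, which esterifies cholesterol in lipoproteins (log2 change 0.13, SE 0.103, edgeR adjusted p = 0.432), the endocytic receptor gene Lrp1 (log2 change 0.22, SE 0.0824, edgeR adjusted p = 0.0979) and the lipase gene Lpl (log2 change -0.030, SE 0.102, edgeR adjusted p = 0.882). The groups overlapped in each.

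Markers of the cells known to express Apoe and Abca1 rose beside them. Of 12 microglia markers 11 were called higher, against 9.32% of all tested genes (median log2 fold change 1.21). Their summed level was 558 to 606 CPM in Control against 1126 to 1751 in TAF15 OE. Of 12 astrocyte markers 8 were higher (median 0.50, sums of 5601 to 6888 CPM in Control against 9447 to 10294 in TAF15 OE), and of 10 fibroblast and mural cell markers 5 were (median 0.70, sums of 251 to 326 CPM in Control against 394 to 447 in TAF15 OE). The lowest p values were those of Trem2 (1.51) and Cx3cr1 (1.20) for microglia, Gfap (2.07), Aqp4 (1.23) and Gja1 (0.66) for astrocytes and Col1a1 (0.78), Vtn (0.54) and Pdgfrb (0.45) for fibroblasts and mural cells. TAF15 OE 1 had the highest microglia sum, and 6 of the 8 members called higher were also highest there. The other 2 were Srebf1, highest in TAF15 OE 2, and Soat1, highest in TAF15 OE 3. TAF15 OE 1 also had the highest sum of its group for astrocyte, oligodendrocyte precursor, endothelial and excitatory neuron markers. In the remaining marker lists TAF15 OE 2 or TAF15 OE 3 was the highest of the group. No microglia, astrocyte or fibroblast and mural cell marker was at 0 in any library. The part of these 3 lists in the lipoprotein and efflux genes was not tested.

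**Figure D3:**
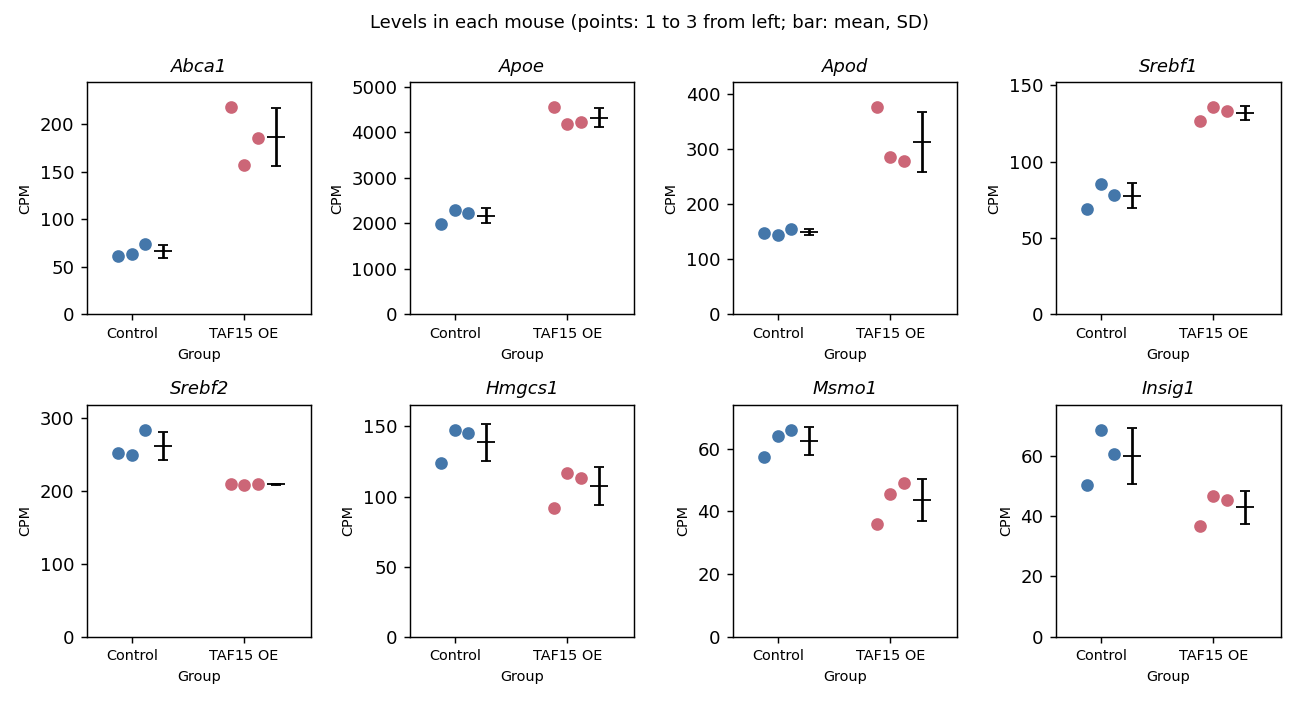
CPM of 8 cholesterol genes (y axis, from 0) in each mouse, with points for mice 1 to 3 of Control (blue) and TAF15 OE (red) from left to right and the mean and SD beside them. Abca1, Apoe, Apod and Srebf1 are higher and Srebf2, Hmgcs1, Msmo1 and Insig1 lower in TAF15 OE, with no overlap in any of the 8; under scaling on presynaptic release genes the last 4 were not called.

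Of the 5 genes for transport in the cell, storage and hydroxylation, Npc1, Npc2 and Soat1 rose. These 3 were called higher, against 9.32% of all tested genes, and 0 were called lower, against 5.95%. Npc2, which picks up free cholesterol in the lysosome lumen, stood at 58.5, 84.0 and 76.6 CPM across Control 1 to 3, against 137, 109 and 116 across TAF15 OE 1 to 3 and rose 1.65-fold (log2 change 0.73, SE 0.141, edgeR adjusted p = 0.0134). Npc1, the membrane protein that receives it, stood at 65.6, 74.7 and 76.6 CPM across Control 1 to 3, against 94.7, 90.1 and 90.4 across TAF15 OE 1 to 3 and rose 1.27-fold (log2 change 0.34, SE 0.0760, edgeR adjusted p = 0.0127). Its call was lost without TAF15 OE 2 (adjusted p = 0.0533), and without Control 1 and TAF15 OE 1 together (adjusted p = 0.0857). On unfiltered log2(FPKM + 1) limma-trend called neither Npc1 nor Npc2 (adjusted p of 0.0820 and 0.0627). With the replicate number as a block, edgeR did not call Npc2 (adjusted p = 0.0920). Soat1, the acyltransferase that turns cholesterol into stored esters, stood at 42.1, 39.4 and 44.2 CPM across Control 1 to 3, against 59.0, 55.9 and 59.2 across TAF15 OE 1 to 3. It rose 1.38-fold (log2 change 0.47, SE 0.0782, edgeR adjusted p = 0.00341), and was called with any 1 library left out. Stard4, a cytosolic sterol carrier induced by SREBP-2, stood below Control in all 3 libraries but was not called (log2 change -0.27, SE 0.116, edgeR adjusted p = 0.141).

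Cyp46a1, the neuronal hydroxylase by which most cholesterol leaves the brain, was not called (log2 change -0.062, SE 0.0634, edgeR adjusted p = 0.572). It stood at 139, 146 and 145 CPM across Control 1 to 3, against 135, 141 and 136 across TAF15 OE 1 to 3, and the groups overlapped. Per length it was among the most abundant members, at 42.9 ± 1.94 FPKM in Control and 42.4 ± 1.19 in TAF15 OE, after only Apoe, Apod and Srebf2. Its log2 fold change turned to 0.25 and was called (adjusted p = 0.0156) under scaling on presynaptic release genes.

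A wider set of 80 genes of sterol and lipid handling that are not members was read from the same fit, and 73 were tested. Of these 13 were called higher (9.32% of all tested genes were) and 5 lower (5.95%), and the median log2 fold change was 0.086. None of 8 genes for SREBP processing and sterol-regulated degradation was called by edgeR, and 0 had an unadjusted p below 0.05. In the other synthesis genes, 1 of 7 was called, the reductase gene Cyb5r3 (0.33).

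Among apolipoproteins, transfer proteins and exporters, 2 rose and 2 fell of 11. Of all genes tested, 9.32% were called higher and 5.95% lower. Clu, an apolipoprotein of astrocytes, stood at 1025, 1131 and 1088 CPM across Control 1 to 3, against 2066, 1969 and 1937 across TAF15 OE 1 to 3 and rose 1.84-fold (log2 change 0.88, SE 0.0722, edgeR adjusted p = 6.04e-05). Lpcat3, a phospholipid-remodelling LXR target, rose (0.41), and the neuronal sterol exporter gene Abcg4 (-0.24) and the endothelial lipase gene Lipg (-0.97) fell. Of 9 lipoprotein receptor genes 2 rose, the lysosomal protein gene Scarb2 (log2 change 0.48, SE 0.0614, edgeR adjusted p = 9.43e-04) and Cd36 (1.25). Of 14 sterol carriers and contact-site proteins, Scp2 (0.34) and Tspo (0.87), a mitochondrial protein raised in reactive glia, rose, and Gramd1b (-0.23) and Osbpl6 (-0.30) fell.

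The lipid droplet coat genes Plin2 (log2 change 0.80, SE 0.137, edgeR adjusted p = 0.00372) and Plin3 (0.48) were the 2 called of 6 ester storage genes. Both were called higher, as were 9.32% of all tested genes, with 5.95% lower. A list of 15 genes held 12 for fatty acid synthesis, driven by SREBP-1 or LXR, and the 3 RXR genes, whose products pair with LXR. Among the 12, Elovl5 (0.46), Fads2 (0.27) and Mid1ip1 (0.33) rose and Acss2 (-0.29), for acetyl-CoA synthesis, fell. Of the RXR genes Rxrg (0.69), named after its values were seen, rose. Fasn (0.0021), Acaca (0.00495) and Scd1 (0.093), classical targets of SREBP-1, were not called, with SE of 0.0747 to 0.0928, and were chosen after their values were seen. None of 3 oxysterol enzyme genes was called by edgeR, with 1 at an unadjusted p below 0.05. Of the 18 calls in this wider set 6 held with any 1 library left out, those of Clu, Scarb2, Scp2, Tspo, Plin2 and Elovl5, and the other 12 were lost without at least 1 library, at adjusted p up to 0.157.

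The remaining marker lists set the tissue beside these genes. In TAF15 OE, 2 of 8 oligodendrocyte precursor markers (sums of 382 to 393 CPM in Control against 413 to 512 in TAF15 OE), 5 of 10 endothelial markers (sums of 240.4 to 294 CPM in Control against 323 to 409 in TAF15 OE) and 3 of 6 tested B and plasma cell markers (sums of 85.5 to 266 CPM in Control against 300.0 to 878 in TAF15 OE) were called higher. Of 9 inhibitory neuron markers 2 were called lower (sums of 751 to 817 CPM in Control against 655 to 767 in TAF15 OE). Of all tested genes 9.32% were called higher and 5.95% lower. None of 10 choroid plexus markers was called by edgeR, with 0 at an unadjusted p below 0.05. Summed, they reached 152 CPM in Control 1 and 1572 in TAF15 OE 1, against 4400 to 5122 in the other 4 libraries. The called markers with the lowest p values here were Vcan (0.49) and Sox10 (0.32), Abcb1a (0.51), Pecam1 (0.59) and Slco1a4 (0.42), Cd79a (2.02), Mzb1 (2.81) and Cd79b (1.81) and, for inhibitory neurons, Sst (-0.38) and Pvalb (-0.48). Without those 2 libraries 6 cholesterol genes were called higher and 9 lower, against 1197 and 1017 of all 16968 genes tested. The calls of Abcg1, Mvd and Npc1 were then lost (adjusted p of 0.285, 0.0607 and 0.0857), and Tm7sf2 was called lower (-0.47, adjusted p = 0.0470).

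**Figure D4:**
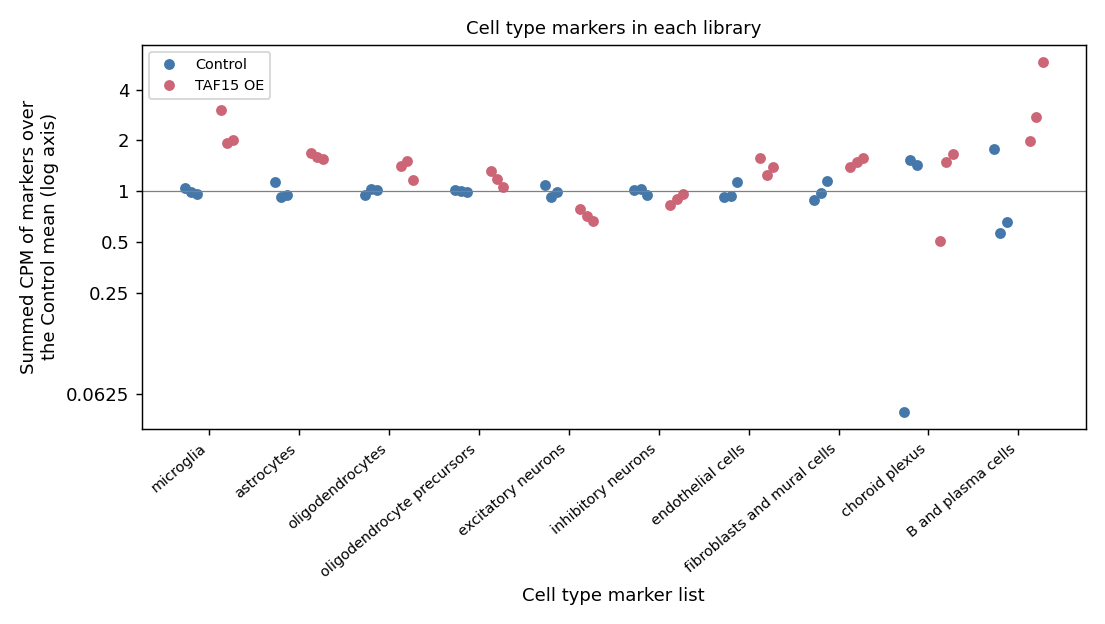
Summed CPM of the markers of each cell type list in each library, over the Control mean of that list (y axis, log scale), for Control (blue) and TAF15 OE (red), mice 1 to 3 from left to right. Microglia and astrocyte sums lie above Control and excitatory neuron sums below it in all 3 TAF15 OE libraries, and the choroid plexus sum of Control 1 is the lowest point.

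In the authors' deposited table, whose test is not named, 7 of the 38 members had an adjusted p below 0.05 and were higher and 9 were lower. Of these Abca1 and Apod were marked there as significant, and the smallest absolute log2 fold change of any gene so marked was 1.00. The members' log2 fold changes there equal those of the DESeq2 Wald test used here, so the counts of 7 and 9 are not a separate result.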

How the data were processed

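Hippocampal RNA of 3 Control and 3 TAF15 OE mice was analysed from the deposited tables, and library totals ranged from 14965464 to 16067000 counts. The submitters' processing notes name CASAVA, Bowtie2 2.2.3, HISAT2 2.1.0, TopHat2 and build GRCm38 without roles. Counter, annotation and strandedness are not named in the sources used here. The authors deposited raw counts per gene, and FPKM per gene for 30821 genes with a count. The authors' comparison table repeats the counts and gives a mean normalized signal per gene, a fold change as a ratio, its log2 value and a p-value with its adjusted form, with a test that is not named.

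Raw counts were tested with edgeR 4.0.16 (R 4.3.3) by quasi-likelihood, TMM scaling and filterByExpr (minimum count 10, minimum total 15), which kept 16758 of 52550 genes. Benjamini-Hochberg adjustment covered all of them. CPM uses the TMM-scaled totals, and ± values are SD over 3 mice. The series' design text gives 1 mouse for each library. Alternatives used DESeq2 1.42.0, limma 3.58.1 (voom, and trend on log2 FPKM with pseudocounts of 1 and 0.1 and a mean FPKM of at least 0.5), other scalings and filters, a replicate block and fewer libraries. The code was tested on simulated data.

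The members and lists were chosen with earlier results of these data known. Values in every library are given for called members and the 5 sterol-sensing genes. Up to 4 called genes of each wider list and up to 3 of each marker list, by lowest p, are named, except 1 marker that is not reported here. Rxrg, Fasn, Acaca and Scd1 were added after their values were seen. Exonic overlaps were read from GENCODE M21 and promoter windows from RefSeq.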

Additional observations from a re-analysis of the deposited data

How the results depend on the processing

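With DESeq2 size factors, the DESeq2 Wald test, limma-voom or other count filters, the counts of members called stayed within 1.5 times 8 higher and 9 lower. With total counts 9 were higher and 6 lower, 5 of the latter synthesis enzymes. The calls of Hmgcs1, Dhcr7 and Insig1 were then lost (adjusted p of 0.0718 to 0.0910), and Lrp1 was called higher (0.0403). The presynaptic scaling gave 15 higher and 0 lower, 0 synthesis enzymes lower, 7517 genes called in all, a synthesis median of 0.00491 and a lipoprotein and efflux median of 0.54. Its calls over all genes were 98.4% higher, against 61.0% with TMM and 72.0% with total counts. It raised the estimates of all genes together. Among the members and the wider genes named by rule, the log2 fold changes that this common shift turned positive were Abcg4 (0.072), Acat2 (0.088), Acss2 (0.022), Cyp46a1 (0.25), Dhcr7 (0.021), Gramd1b (0.085), Hsd17b7 (0.011), Insig2 (0.22), Lpl (0.28), Lss (0.25), Mvk (0.088), Nr1h2 (0.30), Nsdhl (0.18), Osbpl6 (0.021), Pmvk (0.12), Sc5d (0.13), Scap (0.21) and Stard4 (0.042). On log2(FPKM + 1), 1 member and 0 synthesis enzymes were called lower, and 1551 genes were called in all. On log2(FPKM + 0.1) these were 2, 1 and 1630. On log2(FPKM + 1) without a filter they were 0, 0 and 669, and 5 members were higher. Lpl and Nr1h2 turned positive with total counts (0.017 and 0.031) and on log2(FPKM + 1), with or without a filter (0.012 and 0.029), and log2(FPKM + 0.1) (0.014 and 0.030). Without Control 1 and TAF15 OE 1 together, Ebp (-0.036) and Mylip (-0.13) turned negative.

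With 1 library left out at a time, 6 to 7 members were higher and 2 to 8 lower, 1 to 6 synthesis enzymes were lower, 3 efflux genes were higher and 1331 to 2501 genes were called in all. The synthesis median lay between -0.37 and -0.26. Estimates near 0 changed sign, with ranges of -0.0023 to 0.21 for Ebp, -0.0014 to 0.20 for Lcat, -0.12 to 0.034 for Lpl, -0.17 to 0.038 for Lss, -0.061 to 0.11 for Mylip and -0.058 to 0.011 for Nr1h2. The cause of these changes was not tested.

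The labels give libraries with the same replicate number nothing else in common. Their deviations from the group means correlated at 0.126, 0.0776 and 0.0871, against -0.0950 to 0.0404 for the other pairs. Each library correlated best with its own number. Control 1 and TAF15 OE 1 also stood apart together on the second principal component and held less choroid plexus RNA. Whether the mice were paired or shared a batch was not tested. With the replicate block 8 members were higher, 10 lower and 3291 genes called in all. Npc2 was then not called (adjusted p = 0.0920), and Idi1 (0.0460) and Lrp1 (0.0368) were. Fdps, with 7 to 15 counts in a library, had an SE of 0.414.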
